A study of Mus musculus with 48 samples.

Results

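The genes described here are the writers and erasers of DNA methylation: Dnmt1, Dnmt3a, Dnmt3b, Dnmt3l and Uhrf1 on the writing side, and Tet1, Tet2 and Tet3 on the erasing side. They were chosen by name, as the enzymes and direct cofactors of the pathway and by no cut-off on a measured value. Earlier results of these data were known when they were chosen. The 8 genes are among the 24264 transcripts in the count tables. Of these transcripts, 19768 had at least 1 read and 15630, with all 8 genes among them, passed the filter on low counts. DNA methylation marks cytosines that precede a guanine (CpG). DNMT1 copies the mark onto the new strand after replication, and UHRF1 recognises the hemimethylated site and brings DNMT1 to it. DNMT3A and DNMT3B methylate unmethylated DNA, and DNMT3L, which has no catalytic activity of its own, stimulates them in germ cells and embryonic cells. The TET enzymes oxidise methylcytosine, the first step of its removal, and vitamin C, which was present in the reprogramming medium, is known to stimulate them. When fibroblasts are reprogrammed to induced pluripotent stem cells (iPSCs), methylation is known to be erased at pluripotency genes.

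RNA of 48 mouse libraries from 20 conditions was sequenced by STRT, a method that reads the 5′ ends of transcripts, so that levels do not scale with transcript length. They are given as CPM, the reads of a transcript scaled to the same total in every library. MKOS and OKMS are doxycycline-inducible cassettes that carry the same reprogramming factors in a different order, and OKMS has a shorter form of Klf4. Either cassette, with a CAG-driven rtTA, sits in the third intron of Sp3 in TNG embryonic stem cells (ESCs), which carry a Nanog-GFP reporter. Transgenic mouse embryonic fibroblasts (MEFs) made from these TNG MKOS and TNG OKMS ESCs, through chimeric embryos, were mixed with wild-type (WT) MEFs, treated with doxycycline and vitamin C, and sorted on day 10 according to the series' design, while the growth protocol gives 10 or 15 days.

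The sorted populations have 3 libraries each and were all CD44 low. 2NG- cells are ICAM1 low and Nanog-GFP negative, 3NG- cells are ICAM1 high and Nanog-GFP negative, and 3NG+ cells are ICAM1 high and Nanog-GFP positive. E-cadherin on the surface (E-CAD) split the OKMS cells further: Nanog-GFP negative OKMS cells of either gate were collected with it (E-CAD+) and without it (E-CAD-), and all other sorted cells were E-CAD+. The other conditions have 2 libraries each: WT, MKOS and OKMS MEFs, MKOS and OKMS iPSC clones without doxycycline (-dox) or in 2i, ESCs of the lines E14, TNG, TNG OKMS and TNG MKOS, and D6, an iPSC line with 1 piggyBac copy of MKOS. The labels do not say which replicates are separate cultures, so the p-values measure the spread between these libraries only.

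Libraries held 1429717 to 14174725 reads on transcripts, with a median of 6243254.5, so that 3 reads, the floor used below, are worth 0.212 to 2.10 CPM. OKMS 3NG+ replicate 2 was the shallowest library. The labelled cell types were checked against their markers: the summed level of 9 fibroblast genes was 3513 to 5741 CPM in the MEFs and 4.63 to 12.7 CPM in the ESCs, and that of 8 pluripotency genes was 2.04 to 11.9 CPM in the MEFs and 10593 to 17752 CPM in the ESCs. Replicate 3 of the OKMS E-CAD+ 2NG- and 3NG- populations stood apart, with 2979 and 5151 CPM of pluripotency genes against 752 to 930.2 and 1516 to 2193 CPM in the other replicates. The RNA of the sort genes was checked too. Cdh1, which encodes E-cadherin, was at 0 to 0.687 CPM in MEFs, 4.24 to 51.5 CPM in E-CAD- and 62.6 to 182 CPM in E-CAD+ sorted libraries. Cd44 was at 65.4 to 362 CPM in MEFs, and although the gates were CD44 low, it was at 159, 145 and 96.1 CPM in OKMS E-CAD- 3NG- and 135, 125 and 9.18 CPM in OKMS E-CAD+ 3NG- cells, of which only the last lies below all MEF libraries. The 2 libraries that stood apart also held the highest sums of 4 trophoblast genes (58.1 and 91.8 CPM) and of 4 primitive endoderm genes (26.0 and 43.6 CPM) among the E-CAD+ sorted libraries. Where leaving them out changes a call, both values are given, and the same holds for a fit of 41 libraries, which leaves out replicate 3 of the 2NG- and 3NG- populations of both cassettes and OKMS 3NG+ replicate 2. Several comparisons share libraries and are not independent of each other.

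The start regions of the genes differ in how much CpG, the substrate of these enzymes, they hold. Sequences are RefSeq windows of GRCm38.p6 from 250 bases before to 50 after an annotated start, on the strand of the gene, and capitals mark CpG in the first set. Dnmt3b (chr2:153649199-153649498, plus strand), Dnmt3l (chr10:78042037-78042336, plus strand) and Tet1 (chr10:62887275-62887574, minus strand) are shown because these are the members with the largest changes between MEFs and ESCs, described below.
Dnmt3b: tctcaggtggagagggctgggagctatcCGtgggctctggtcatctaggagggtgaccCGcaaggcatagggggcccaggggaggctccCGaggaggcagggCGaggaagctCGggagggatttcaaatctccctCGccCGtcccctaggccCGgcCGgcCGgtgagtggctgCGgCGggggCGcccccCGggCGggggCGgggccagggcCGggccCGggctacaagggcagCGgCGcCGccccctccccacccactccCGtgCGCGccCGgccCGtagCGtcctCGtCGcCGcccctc
Dnmt3l: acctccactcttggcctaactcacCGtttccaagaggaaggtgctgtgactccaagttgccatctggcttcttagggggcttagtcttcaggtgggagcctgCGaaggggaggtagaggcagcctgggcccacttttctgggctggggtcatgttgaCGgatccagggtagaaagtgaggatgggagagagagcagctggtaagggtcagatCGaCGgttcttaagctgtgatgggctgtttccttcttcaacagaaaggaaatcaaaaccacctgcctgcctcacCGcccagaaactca
Tet1: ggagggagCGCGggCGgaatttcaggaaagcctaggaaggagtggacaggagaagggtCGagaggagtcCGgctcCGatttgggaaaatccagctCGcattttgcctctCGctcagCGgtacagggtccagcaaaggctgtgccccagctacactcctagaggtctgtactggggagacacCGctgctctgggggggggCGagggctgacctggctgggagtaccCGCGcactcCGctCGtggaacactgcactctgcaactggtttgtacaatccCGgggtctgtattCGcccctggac
The Dnmt3b window holds 30 CpG, and 88.3% of the 32851 mouse windows hold fewer. The Tet1 window holds 17, with 68.6% of windows below it. The Dnmt3l window shown is the first of 3 annotated ones and holds 6, below the median of 7 over all windows, with 52.1% of windows holding more, and the other two hold 4 and 3. The 15 windows of the 8 genes have a median of 18. The 3 genes that changed most do not share a CpG content.

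Dnmt1 has 3 annotated start windows, and the third (chr9:20952574-20952873, minus strand, 33 CpG) was the only one of the 15 windows with an E2F motif spelled TTTGGCGC on either strand, here in capitals. E2F factors are known regulators of genes used in S phase, the group that Dnmt1 is compared with below.
Dnmt1: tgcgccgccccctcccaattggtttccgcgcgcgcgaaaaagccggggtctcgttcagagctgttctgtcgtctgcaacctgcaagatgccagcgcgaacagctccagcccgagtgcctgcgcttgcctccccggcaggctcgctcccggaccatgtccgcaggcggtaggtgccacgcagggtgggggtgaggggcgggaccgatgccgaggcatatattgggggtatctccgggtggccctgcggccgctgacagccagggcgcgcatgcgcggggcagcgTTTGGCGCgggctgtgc
TTTGGCGC is present in 169 of the 32851 windows (0.514%). The other E2F spelling searched, TTTCCCGC (1.07% of windows), the octamer ATGCAAAT (1.74%) and the Esrrb motif TCAAGGTCA (0.423%) are not in any of the 15 windows, on either strand. A match describes letters only.

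**Figure D1:**
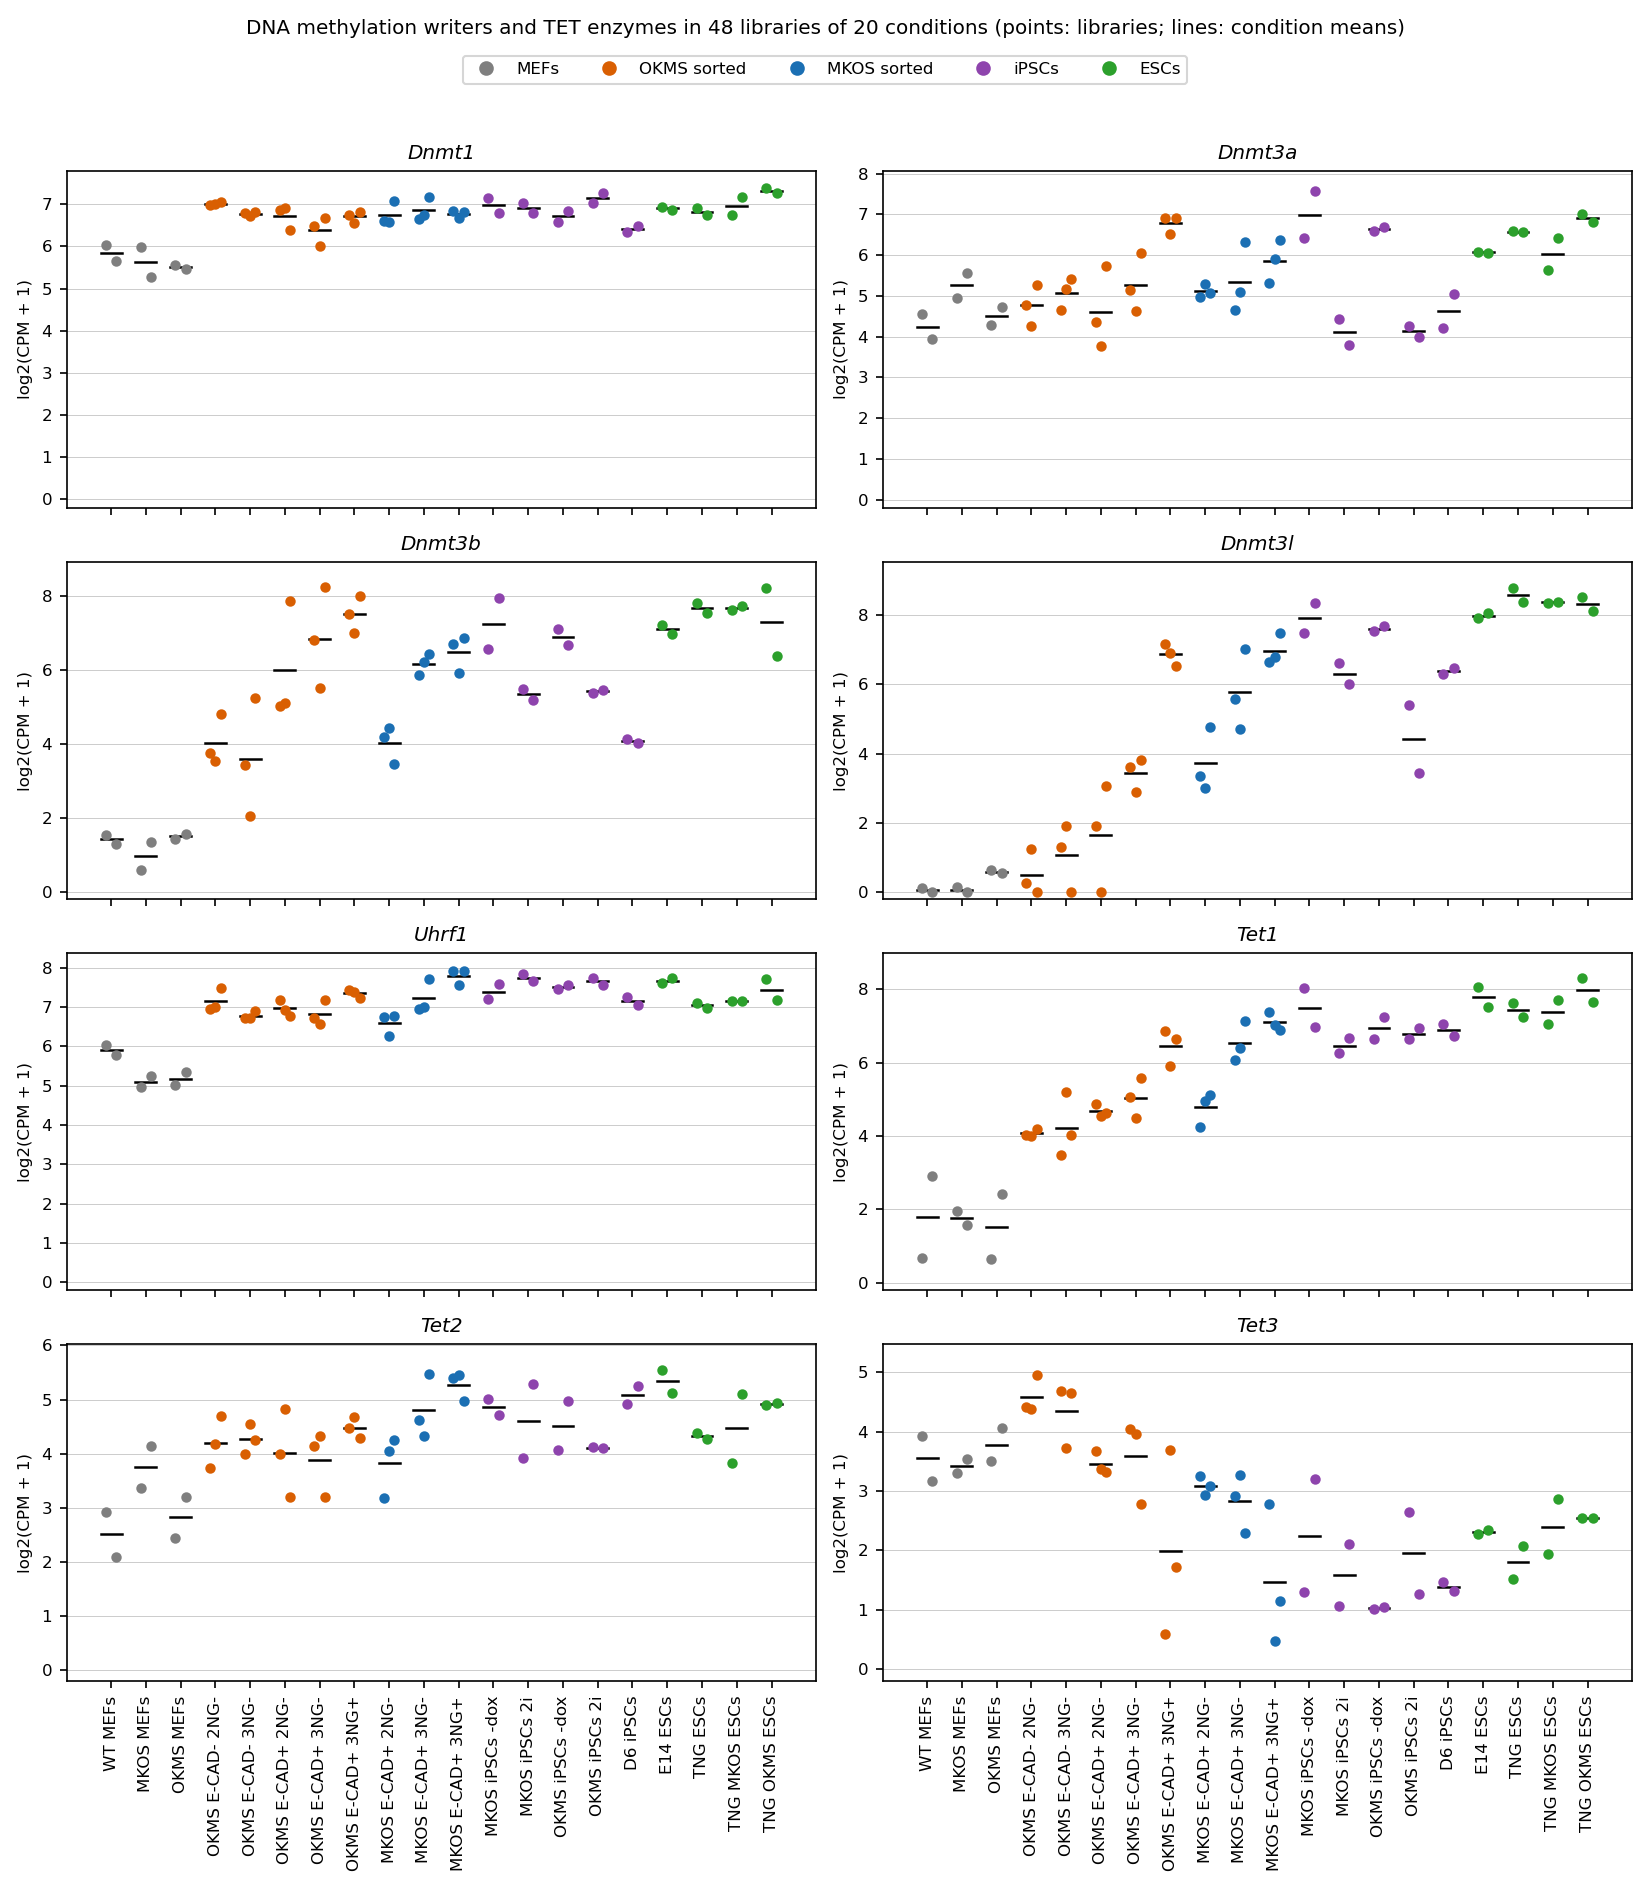
Levels of the 8 genes as log2(CPM + 1), with 1 point per library and a line at the mean of each of the 20 conditions, coloured by cell class. Dnmt3b, Dnmt3l and Tet1 run from MEF levels under 7 CPM to over 80 CPM in every ESC library, while Dnmt1 and Uhrf1 start at over 30 CPM in MEFs and Tet3 is highest in the OKMS E-CAD- populations.

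MEFs and ESCs are the start and the reference end point of the process. All 8 genes passed the test between the 8 ESC and 6 MEF libraries (edgeR's quasi-likelihood test with Benjamini-Hochberg adjustment over 15630 genes, called at FDR of at most 0.05, as in all comparisons below), 7 of them higher and 1 lower in ESCs. Over all genes tested, 29.6% were called higher and 30.4% lower, and the median log2 fold change of the 8 genes was 1.93. All 8 calls held in each of the 21 alternative fits.

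Dnmt3l had the largest change. Its level ran from 240.2 to 443 CPM in ESCs with a median of 329.7 CPM, and from 0 to 0.557 CPM in MEFs with a median of 0.0889 CPM. The fitted log2 fold change was 11.11 ± 0.65 (SE; adjusted p = 3.30e-18, edgeR). The MEFs held 9 Dnmt3l reads over 6 libraries and the ESCs 22626 over 8, a ratio of pooled CPM of 1706 with a 95% counting interval of 899 to 3732. Counting error is all that this interval covers, as for the other counting intervals below.

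The de novo enzymes themselves differed from each other. Dnmt3b ran from 81.6 to 295 CPM (median 189) in ESCs and from 0.512 to 1.95 CPM (median 1.61) in MEFs, a log2 fold change of 6.99 ± 0.56 (adjusted p = 4.17e-14, edgeR). Dnmt3a was already present in MEFs, at 14.4 to 46.3 CPM (median 24.0) against 49.1 to 127 CPM (median 89.2) in ESCs, and rose by 1.78 ± 0.28 (adjusted p = 6.38e-07, edgeR). The groups did not overlap for either gene.

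The maintenance pair rose by less. Dnmt1 was at 106 to 166 CPM (median 121) in ESCs and 37.9 to 64.8 CPM (median 47.7) in MEFs, a log2 fold change of 1.36 ± 0.14 (adjusted p = 3.49e-11, edgeR). Uhrf1 was at 125 to 213 CPM (median 143) in ESCs and 30.4 to 64.6 CPM (median 38.0) in MEFs, a log2 fold change of 1.99 ± 0.14 (adjusted p = 8.54e-16, edgeR). Neither gene overlapped between the groups. Only 69.3% of the Uhrf1 reads were uniquely mapped, against 90.6% to 100% for the other 7 genes, so that all Uhrf1 levels may include reads of similar sequence elsewhere. All 16 S phase and proliferation genes of the list used here were also higher in ESCs, with a summed level of 2699 to 3575 CPM against 773 to 1458 CPM in MEFs, and the part of cell cycling in the Dnmt1 and Uhrf1 levels was not tested.

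Of the TET genes, Tet1 carried most of the change. It ran from 133 to 315 CPM (median 198) in ESCs and from 0.557 to 6.57 CPM (median 2.43) in MEFs, and its log2 fold change was 6.21 ± 0.38 (adjusted p = 1.70e-17, edgeR). Tet2 rose by 1.87 ± 0.28 (adjusted p = 1.89e-07, edgeR), from 3.29 to 16.6 CPM (median 7.41) in MEFs to 13.3 to 45.8 CPM (median 29.2) in ESCs, with overlapping ranges. Tet3 was the 1 member that fell, from 8.03 to 15.6 CPM (median 10.5) in MEFs to 1.87 to 6.25 CPM (median 3.97) in ESCs without overlap, a log2 fold change of -1.51 ± 0.44 (adjusted p = 0.00314, edgeR). Tet3 was the thinnest of the 3, with 2501 reads over all 48 libraries.

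The first populations of the sort were compared with the MEFs of their own cassette. In MKOS 2NG- cells, 5 of the 8 genes were higher than in MKOS MEFs and none was lower, where 15.0% of all genes were called higher and 12.0% lower. In bulk RNA, fewer cells of a type and less RNA per cell cannot be told apart, and this holds for each level below. The Dnmt1, Uhrf1, Dnmt3b, Dnmt3l and Tet1 levels were above those of the MEFs in all 3 sorted libraries.

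Dnmt3l was at 9.28, 7.09 and 26.3 CPM in the MKOS 2NG- replicates and at 0.102 and 0 CPM in MKOS MEFs. All 3 sorted libraries were above both MEF libraries, which together held 1 Dnmt3l read against 333. The ratio of pooled CPM was 199 with a 95% counting interval of 35.4 to 7864, and the edgeR call had an adjusted p of 1.72e-05. Dnmt3b was at 17.1, 20.4 and 10.0 CPM against 0.512 and 1.55 CPM, a log2 fold change of 4.08 ± 0.96 (adjusted p = 0.00117, edgeR). The groups did not overlap, but the call was lost without MKOS MEFs replicate 1, at 3.38 (adjusted p = 0.0558).

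Tet1 was at 18.1, 30.1 and 34.1 CPM against 2.87 and 1.99 CPM, a log2 fold change of 3.37 ± 0.60 (adjusted p = 3.46e-05, edgeR). Uhrf1 was at 106, 75.1 and 109 CPM against 30.4 and 36.6 CPM, a log2 fold change of 1.5 ± 0.23 (adjusted p = 3.93e-06, edgeR). Dnmt1 was at 95.5, 94.2 and 134 CPM against 62.8 and 37.9 CPM, a log2 fold change of 1.04 ± 0.23 (adjusted p = 7.14e-04, edgeR). None of these 3 genes overlapped between the groups, and the Dnmt1 call was lost without MKOS MEFs replicate 2, at 0.63 (adjusted p = 0.115). In the same cells, 12 of the 16 S phase genes were called higher, with sums of 2032 to 2517 CPM against 959 to 1026 CPM in MKOS MEFs, and 8 of the 9 fibroblast genes were called lower.

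Dnmt3a, Tet2 and Tet3 were not called. Dnmt3a was at 30.6, 38.5 and 32.8 CPM in MKOS 2NG- cells and 30.1 and 46.3 CPM in MKOS MEFs, with an interval of the log2 difference from -1.09 to 0.71. Tet2 was at 8.06, 15.6 and 18.0 CPM against 9.32 and 16.6 CPM, with an interval from -0.81 to 0.98. Tet3 was at 8.57, 6.64 and 7.45 CPM against 8.91 and 10.6 CPM, with both MEF libraries above the sorted ones and an interval from -1.88 to 1.09.

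OKMS E-CAD- 2NG- cells are the OKMS cells of the 2NG- gate without E-cadherin on the surface, whereas the MKOS 2NG- cells above were E-CAD+. Against OKMS MEFs, 5 of the 8 genes were higher in them, where 11.7% of all genes were: Dnmt1, Uhrf1, Dnmt3b, Tet1 and Tet2. Dnmt3l was not among them. It was at 0.19, 1.37 and 0 CPM in the E-CAD- 2NG- replicates and at 0.557 and 0.458 CPM in OKMS MEFs, which is 5 and 7 reads in all and a ratio of 0.705 with a 95% counting interval of 0.176 to 2.58.

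Uhrf1 was at 122, 126 and 179 CPM in the E-CAD- 2NG- cells and 31.4 and 39.5 CPM in OKMS MEFs, a log2 fold change of 1.97 ± 0.24 (adjusted p = 6.05e-08, edgeR). Dnmt1 was at 126, 127 and 131 CPM against 46.0 and 42.9 CPM, a log2 fold change of 1.48 ± 0.24 (adjusted p = 1.04e-05, edgeR). Both stood clear of the MEFs, and 15 of the 16 S phase genes were also called higher, with sums of 2165 to 2889 CPM against 773 to 873 CPM. In the same cells 8 of the 9 fibroblast genes were called lower, and 7 of the 8 pluripotency and 5 of the 6 epithelial genes higher, Cdh1 among them (5.84, adjusted p = 1.76e-07, edgeR). Their part in the member values was not tested. Dnmt3b was at 12.3, 10.6 and 26.7 CPM against 1.67 and 1.95 CPM, a log2 fold change of 3.16 ± 0.86 (adjusted p = 0.00601, edgeR). Its call was lost without either OKMS MEF library, at 3.15 each time (adjusted p = 0.0533 without replicate 1 and 0.0843 without replicate 2).

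Tet1 was at 15.2, 15.1 and 17.4 CPM against 0.557 and 4.35 CPM, a log2 fold change of 2.58 ± 0.59 (adjusted p = 0.00115, edgeR) that fell short without OKMS MEFs replicate 1, at 1.93 (adjusted p = 0.0517). Tet2 was at 12.3, 17.2 and 24.9 CPM against 4.45 and 8.25 CPM, without overlap, a log2 fold change of 1.47 ± 0.47 (adjusted p = 0.0203, edgeR). The Tet2 call was lost without OKMS MEFs replicate 1 (1.19, adjusted p = 0.192), without OKMS MEFs replicate 2 (1.85, adjusted p = 0.0573) and without E-CAD- 2NG- replicate 3 (1.21, adjusted p = 0.0931), and in 41 libraries (1.2, adjusted p = 0.062). Tet3 reached its highest levels of the series in these cells, at 20.3, 19.9 and 29.8 CPM against 10.4 and 15.6 CPM in OKMS MEFs, with no overlap. Its difference was not called, with an interval from -0.69 to 2.33.

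Within OKMS, E-CAD+ and E-CAD- cells of the 2NG- and 3NG- gates differed in 2 of the 8 genes, Dnmt3b and Dnmt3l, both higher in E-CAD+ cells, where 4.69% of all genes were called higher. Of the calls over all genes, 66.2% were higher in E-CAD+ cells, and 54.2% without scaling factors. All 8 pluripotency genes were also called higher in the E-CAD+ cells, and 7 of the 9 fibroblast genes lower, and the part of either in the 2 member calls was not tested.

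Dnmt3b was at 31.5, 33.5 and 232 CPM in E-CAD+ 2NG- cells and 12.3, 10.6 and 26.7 CPM in E-CAD- 2NG- cells. In the 3NG- gate it was at 109.6, 44.3 and 298 CPM in E-CAD+ cells and 9.74, 3.14 and 36.8 CPM in E-CAD- cells. Replicate 3 was the highest library of each of the 4 populations, and within each gate the E-CAD+ libraries were above the E-CAD- ones. Its log2 fold change was 3.05 ± 0.45 (adjusted p = 5.66e-06, edgeR), and the call held in all alternatives, at 2.19 to 3.67, and at 2.52 (adjusted p = 1.33e-06) in the 41 libraries without replicate 3.

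Dnmt3l was at 2.73, 0 and 7.34 CPM in E-CAD+ 2NG- cells and, as given above, between 0 and 1.37 CPM in E-CAD- 2NG- cells. In the 3NG- gate it was at 11.2, 6.43 and 13.2 CPM in E-CAD+ cells and 1.49, 2.79 and 0 CPM in E-CAD- cells. The 3NG- groups stood apart and the 2NG- groups overlapped. Over both gates the log2 fold change was 3.31 ± 0.61 (adjusted p = 2.59e-04, edgeR), and it was not called in the 41 libraries (1.84, adjusted p = 0.066) or when only these conditions were fitted (3.03, adjusted p = 0.0794).

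Tet1 was at 28.3, 22.6 and 23.9 CPM in E-CAD+ 2NG- cells, 32.7, 21.4 and 46.6 CPM in E-CAD+ 3NG- cells and 10.1, 35.9 and 15.2 CPM in E-CAD- 3NG- cells. Its log2 fold change of 0.83 ± 0.31 was not called (adjusted p = 0.101, edgeR). It was called without E-CAD- 3NG- replicate 2, the highest E-CAD- library, at 1.16 (adjusted p = 0.0226), and without the filter on low counts, at 0.83 (adjusted p = 8.26e-04). For Dnmt1 and Uhrf1, the intervals of the E-CAD+ minus E-CAD- difference ran from -0.48 to 0.10 and from -0.22 to 0.34.

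The cassettes were compared at matched gates, starting with E-CAD+ 2NG-. Of the 8 genes, 1 was called, Dnmt3b, lower in MKOS, where 2.84% of all genes were higher and 2.23% lower in MKOS. Dnmt3b was at 17.1, 20.4 and 10.0 CPM in MKOS and 31.5, 33.5 and 232 CPM in OKMS. The OKMS libraries were all above the MKOS ones, and replicate 3 alone was over 200 CPM. MKOS minus OKMS, the log2 fold change was -2.81 ± 0.62 (adjusted p = 0.0035, edgeR), and without OKMS E-CAD+ 2NG- replicate 3 it was -1.09 (adjusted p = 0.327), so the call rests on that library. It was also not called in the 41 libraries (-0.89, adjusted p = 0.283) or when only these conditions were fitted (-2.82, adjusted p = 0.0522).

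Dnmt3l went the other way at this gate. It was at 9.28, 7.09 and 26.3 CPM in MKOS and 2.73, 0 and 7.34 CPM in OKMS, so that the lowest MKOS library was just under the highest OKMS one. The ratio of pooled CPM, from 333 and 120 reads, was 2.68 with a counting interval of 2.17 to 3.33. OKMS replicate 3 held 104 of the 120 reads, and replicates 1 and 2 held 16 and 0, so this ratio is weighted to replicate 3. The condition means were 14.2 CPM in MKOS and 3.35 CPM in OKMS. The log2 fold change was 1.67 ± 0.58 and not called (adjusted p = 0.0864, edgeR), but it was called without OKMS E-CAD+ 2NG- replicate 3, at 3.01 (adjusted p = 0.0149), in 41 libraries, at 2.17 (adjusted p = 0.0391), and without the filter, at 1.66 (adjusted p = 1.05e-06).

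Other markers moved with this comparison. The sum of 9 fibroblast genes was 482 to 1016 CPM in MKOS and 100.2 to 235 CPM in OKMS 2NG- libraries, with 5 of the 9 called higher in MKOS, and the 4 trophoblast genes summed to 3.4 to 6.73 CPM in MKOS and 27.3 to 58.1 CPM in OKMS, with 1 of the 4, Eomes, called lower in MKOS. Their part in the Dnmt3b and Dnmt3l values was not tested. Uhrf1 was at 106, 75.1 and 109 CPM in MKOS and 145, 120.2 and 109 CPM in OKMS, and its log2 fold change of -0.45 ± 0.20 was not called (adjusted p = 0.195, edgeR). For Tet1 the interval was -0.84 to 0.90, for Dnmt3a -0.71 to 0.91 and for Dnmt1 -0.46 to 0.35. Tet3 was at 8.57, 6.64 and 7.45 CPM in MKOS and 11.8, 9.35 and 8.96 CPM in OKMS, without overlap, with an interval from -1.84 to 0.84.

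At the E-CAD+ 3NG- gate, the 1 gene called was Dnmt3l, higher in MKOS, where 1.38% of all genes were. Calls over all genes were higher in MKOS in 63.7% of cases, and in 75.1% without scaling factors. Dnmt3l was at 47.0, 25.2 and 128 CPM in MKOS and 11.2, 6.43 and 13.2 CPM in OKMS. The groups did not overlap, and the log2 fold change was 2.55 ± 0.55 (adjusted p = 0.00605, edgeR), with a ratio of pooled CPM of 6.67 (counting interval 5.77 to 7.74). The call was lost without OKMS E-CAD+ 3NG- replicate 2 (2.33, adjusted p = 0.0617) and without MKOS 3NG- replicate 3 (1.71, adjusted p = 0.131), and held in the 41 libraries (1.94, adjusted p = 0.0175).

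Tet1 and Tet2 also had MKOS libraries that were all above the OKMS ones in 3NG- cells, without a call. For Tet2 the gap was small, 19.2 against 19.0 CPM. How many of all genes separate without overlap was not counted, here or in the other comparisons. Tet1 was at 67.0, 83.4 and 140.1 CPM in MKOS and 32.7, 21.4 and 46.6 CPM in OKMS, a log2 fold change of 1.39 ± 0.43 (adjusted p = 0.0793, edgeR) that passed without scaling factors (1.53, adjusted p = 0.049) and without the filter (1.39, adjusted p = 2.44e-05). Tet2 was at 23.5, 19.2 and 43.5 CPM against 16.6, 19.0 and 8.24 CPM, a log2 fold change of 0.85 ± 0.39 (adjusted p = 0.298, edgeR). Dnmt3b was at 57.1, 72.4 and 84.6 CPM in MKOS and 109.6, 44.3 and 298 CPM in OKMS, with overlap, and its log2 fold change of -1.22 ± 0.58 was not called (adjusted p = 0.305, edgeR) except without the filter (adjusted p = 2.93e-04). The pluripotency genes summed to 7553 to 9584 CPM in MKOS and 1516 to 5151 CPM in OKMS 3NG- libraries, with 3 of the 8 called higher in MKOS, and their part in the Dnmt3l and Tet1 values was not tested.

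**Figure D2:**
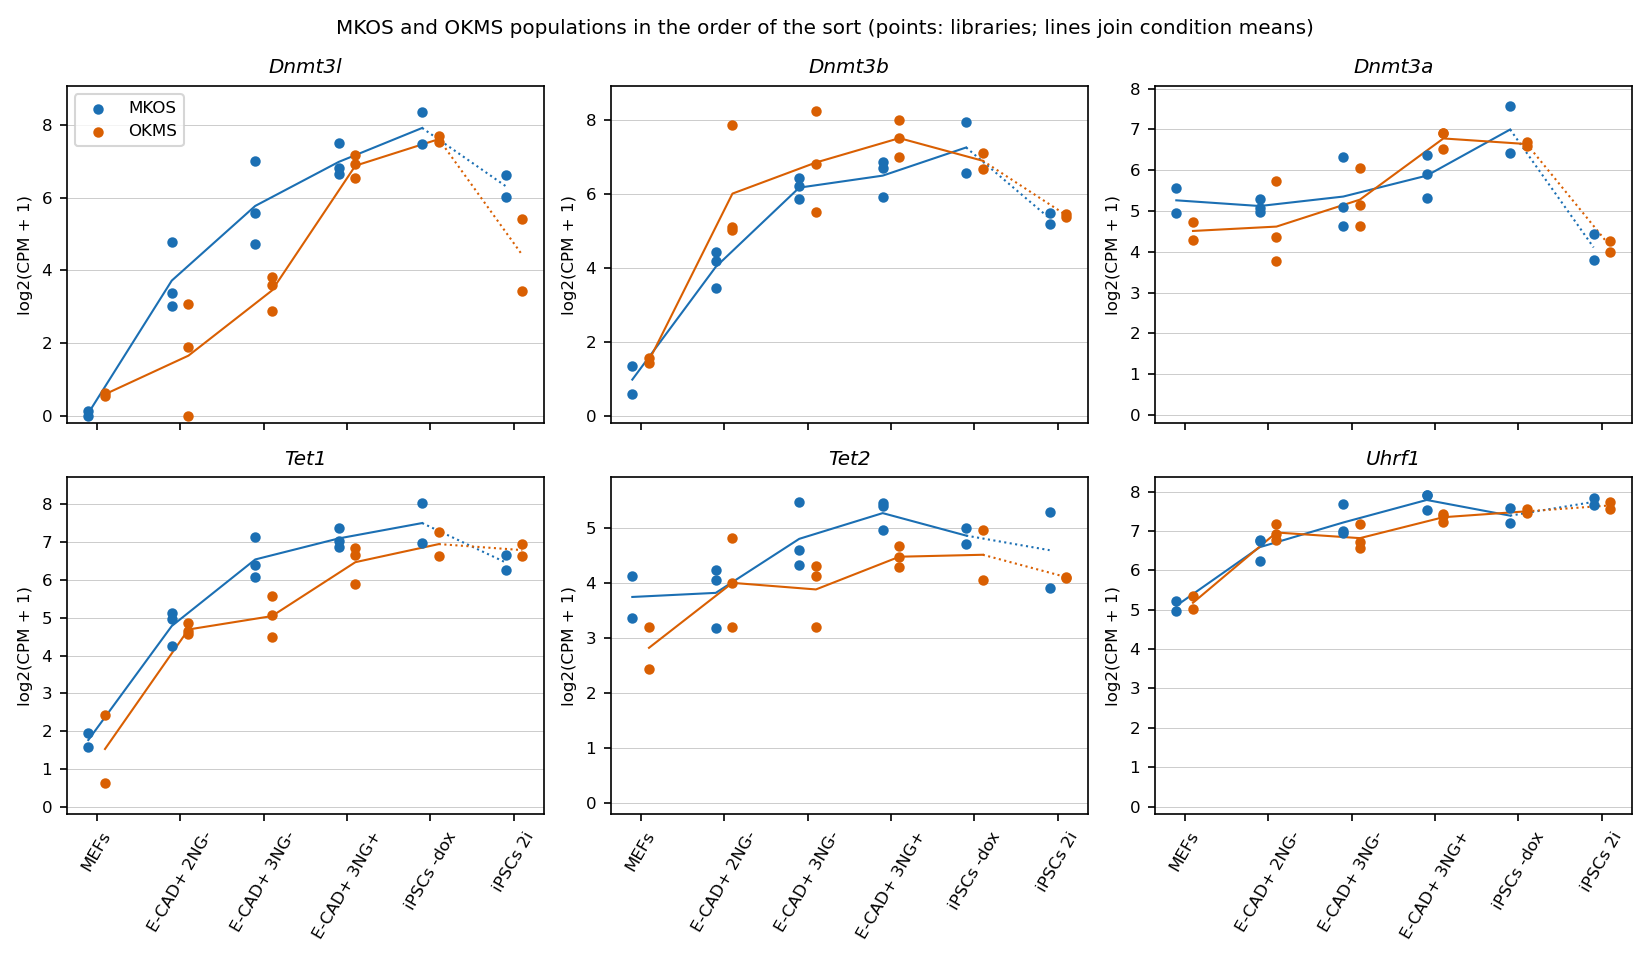
Levels of 6 of the genes as log2(CPM + 1) along the sorted populations of MKOS (blue) and OKMS (orange), from MEFs to iPSCs without doxycycline and, on a dotted line, in 2i. Points are libraries and lines join condition means. Dnmt3l is at 25.2 to 128 CPM in MKOS and 6.43 to 13.2 CPM in OKMS at 3NG-, and overlaps between the cassettes at 3NG+, Dnmt3b shows the OKMS replicate 3 points far above the other libraries at 2NG- and 3NG-, and Dnmt3a drops in 2i.

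The gain of ICAM1 separates the 3NG- gate from the 2NG- gate. Over both cassettes, 1 of the 8 genes, Dnmt3l, was higher in 3NG- cells, where 0.326% of all genes were called higher. With the values above, Dnmt3l ran from 0 to 26.3 CPM in the 6 E-CAD+ 2NG- libraries and from 6.43 to 128 CPM in the 6 E-CAD+ 3NG- libraries, and the gates overlapped within each cassette. The log2 fold change was 1.68 ± 0.40 (adjusted p = 0.0389, edgeR). It is a narrow call, lost when any of 7 libraries was left out: MKOS 2NG- replicate 1 (1.57, adjusted p = 0.122) or 2 (1.52, 0.174), MKOS 3NG- replicate 3 (1.28, 0.228), OKMS 2NG- replicate 1 (1.58, 0.157) or 2 (1.48, 0.132), and OKMS 3NG- replicate 1 (1.67, 0.0959) or 3 (1.57, 0.122). It was also lost when only these conditions were fitted (1.72, adjusted p = 0.376), and in the 41 libraries it was 2.22 (adjusted p = 6.48e-04).

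Dnmt3b was at 57.1 to 84.6 CPM in MKOS 3NG- and 10.0 to 20.4 CPM in MKOS 2NG- cells, without overlap, while in OKMS the gates overlapped. Over both cassettes, its log2 fold change of 1.29 ± 0.41 was not called (adjusted p = 0.253, edgeR). It was called without OKMS E-CAD+ 2NG- replicate 3, at 2.15 (adjusted p = 9.11e-04), in 41 libraries, at 1.46 (adjusted p = 0.00474), and without the filter, at 1.29 (adjusted p = 4.77e-09). Tet1 likewise did not overlap in MKOS, at 18.1 to 34.1 CPM in 2NG- and 67.0 to 140.1 CPM in 3NG- cells, and overlapped in OKMS, with a joint log2 fold change of 1.05 ± 0.30 (adjusted p = 0.162, edgeR) that was called without the filter (1.06, adjusted p = 8.89e-06).

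The Nanog-GFP reporter separates 3NG+ from 3NG- cells. In OKMS, 4 of the 8 genes were higher in 3NG+ cells, where 3.06% of all genes were: Dnmt3l, Dnmt3a, Tet1 and Uhrf1. In MKOS the 1 gene called higher was Uhrf1, where 0.557% of all genes were. Without scaling factors the median log2 fold change of all genes shifted by -0.21 in OKMS and -0.17 in MKOS, and the share of calls that were higher went from 48.8% to 25.9% in OKMS and from 35.2% to 14.7% in MKOS. In the 41 libraries, 7 members were called in OKMS, 6 higher and 1 lower (Tet3), and 3 in MKOS, all higher. The members gained there were Dnmt1, Tet3 and Dnmt3b (1.79, adjusted p = 0.00266) in OKMS and Dnmt3l and Dnmt3a (1.27, adjusted p = 0.0238) in MKOS. That fit leaves out the highest OKMS 3NG- and the lowest OKMS 3NG+ library for Dnmt1 and Dnmt3b. For Tet3 they are the lowest and the highest. In MKOS it leaves out the highest 3NG- library of Dnmt3l and Dnmt3a, while 3NG+ keeps its replicate 3. The libraries left out thus favour these gained calls.

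Dnmt3l was at 11.2, 6.43 and 13.2 CPM in OKMS 3NG- cells and 143, 120.3 and 91.6 CPM in OKMS 3NG+ cells. All 3NG+ libraries were far above all 3NG- ones, the log2 fold change was 3.72 ± 0.58 (adjusted p = 5.19e-05, edgeR), and the call held in all alternatives, at 3.50 to 4.0. In MKOS, Dnmt3l was at 47.0, 25.2 and 128 CPM in 3NG- and 99.1, 110.4 and 179 CPM in 3NG+ cells. These groups overlapped through 3NG- replicate 3, and the log2 fold change of 1.16 ± 0.51 was not called (adjusted p = 0.25, edgeR), but it was in 41 libraries, which leave out that library, at 2.02 (adjusted p = 0.00322), and without the filter, at 1.15 (adjusted p = 5.98e-04).

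The difference between the cassettes in this step was tested itself. The Dnmt3l change was 2.56 ± 0.74 larger on the log2 scale in OKMS than in MKOS, with an interval from 1.06 to 4.06, and was not called (adjusted p = 0.301, edgeR). Without the filter on low counts, the Dnmt3l difference was 2.57 and called (adjusted p = 1.27e-08), so its call depends on the filter. None of the 8 genes was called in this interaction, where 0.0256% of all genes were called in either direction. At an unadjusted p under 0.05 there were 1163 genes, with 1 member, Dnmt3l, and DESeq2 called no member either.

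Dnmt3a, the de novo enzyme already present in MEFs, was at 34.5, 23.8 and 65.4 CPM in OKMS 3NG- and 119, 90.9 and 119 CPM in OKMS 3NG+ cells, without overlap. The log2 fold change was 1.62 ± 0.41 (adjusted p = 0.0116, edgeR), and it was lost without OKMS 3NG- replicate 1 (1.48, adjusted p = 0.0794) or replicate 2 (1.35, adjusted p = 0.111). Tet1 was at 32.7, 21.4 and 46.6 CPM in OKMS 3NG- and 115, 58.8 and 99.6 CPM in OKMS 3NG+ cells, again without overlap. Its log2 fold change was 1.67 ± 0.43 (adjusted p = 0.0148, edgeR), lost without OKMS 3NG- replicate 1 (1.62, adjusted p = 0.0734) or 2 (1.43, adjusted p = 0.117) or OKMS 3NG+ replicate 1 (1.45, adjusted p = 0.0857). In the same step, 5 of the 8 pluripotency genes were called higher, with sums of 1516 to 5151 CPM in 3NG- and 14164 to 15903 CPM in 3NG+ libraries, and their part was not tested.

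Uhrf1 was called with both cassettes. It was at 104, 94.5 and 143 CPM in OKMS 3NG- and 171, 167 and 150.1 CPM in OKMS 3NG+ cells, without overlap, a log2 fold change of 0.72 ± 0.20 (adjusted p = 0.021, edgeR). In MKOS it was at 123, 127 and 207 CPM in 3NG- and 241, 186 and 239 CPM in 3NG+ cells, with overlap, a log2 fold change of 0.72 ± 0.20 (adjusted p = 0.0462, edgeR). Both calls were lost without scaling factors, at 0.52 (adjusted p = 0.117) in OKMS and 0.54 (adjusted p = 0.153) in MKOS, without the filter, at 0.72 (adjusted p = 0.0521) and 0.71 (adjusted p = 0.074), and when only these conditions were fitted, at 0.69 (adjusted p = 0.101) and 0.74 (adjusted p = 0.0726).

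The OKMS call for Uhrf1 was also lost without 3NG- replicate 1 (0.63, adjusted p = 0.126) or 2 (0.60, 0.15) or 3NG+ replicate 1 (0.66, 0.0947). The MKOS call was lost without 3NG- replicate 1 (0.62, 0.244) or 2 (0.64, 0.193) or 3NG+ replicate 1 (0.71, 0.0827), 2 (0.81, 0.0853) or 3 (0.65, 0.149). Dnmt1, its partner in maintenance, was at 89.1, 63.3 and 102 CPM in OKMS 3NG- and 107, 93.7 and 112 CPM in OKMS 3NG+ cells, and its log2 fold change of 0.50 ± 0.20 was not called (adjusted p = 0.131, edgeR), except without OKMS 3NG- replicate 3 (0.69, adjusted p = 0.0475) and in 41 libraries (0.82, adjusted p = 0.0206). In MKOS, Dnmt1 was at 99.3, 106 and 143 CPM in 3NG- and 114, 101 and 112 CPM in 3NG+ cells, with an interval from -0.32 to 0.49.

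Tet3 was not called in this step in the 48 libraries. It was at 15.4, 14.5 and 5.89 CPM in OKMS 3NG- and 0.504, 11.9 and 2.29 CPM in OKMS 3NG+ cells, and at 6.59, 8.66 and 3.88 CPM in MKOS 3NG- and 5.89, 0.395 and 1.23 CPM in MKOS 3NG+ cells. The groups overlapped in both, and the intervals of the log2 difference, from -2.88 to 0.07 and from -2.69 to 0.16, include 0. In OKMS the fall was called without 3NG+ replicate 2, the shallowest library and the highest of the 3NG+ ones for Tet3, at -2.86 (adjusted p = 0.0234), and in the 41 libraries, at -3.13 (adjusted p = 0.0139). Tet2 was at 21.3, 24.5 and 18.7 CPM in OKMS 3NG+ and 41.4, 42.9 and 30.3 CPM in MKOS 3NG+ cells.

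When the 3NG+ cells of both cassettes were compared directly, no member was called in either direction, where 0.345% of all genes were higher and 0.339% lower in MKOS. At an unadjusted p under 0.05 there were 1902 genes with 2 members, and DESeq2 called no member. The 2 were Dnmt3a, at 39.1, 58.5 and 82.2 CPM in MKOS against 119, 90.9 and 119 CPM in OKMS (-1.02 ± 0.40, adjusted p = 0.267, edgeR), and Dnmt3b, at 102, 59.5 and 114 CPM against 181, 127 and 252 CPM (-1.20 ± 0.58, adjusted p = 0.398, edgeR). Neither gene overlapped between the cassettes, and both were called in 41 libraries, at -1.17 (adjusted p = 0.0496) and -1.44 (adjusted p = 0.0269), and without the filter, at -1.03 (adjusted p = 0.0222) and -1.21 (adjusted p = 7.47e-04). Uhrf1, Tet1 and Tet2 did not overlap either, and these were higher in MKOS, without a call. Uhrf1 was at 186 to 241 CPM in MKOS and 150.1 to 171 CPM in OKMS. Tet1 was at 117 to 165 against 58.8 to 115 CPM, and Tet2 at 30.3 to 42.9 against 18.7 to 24.5 CPM. How many of all genes separate in this way was not counted. Dnmt3l, by contrast, overlapped here, with an interval from -1.03 to 1.01.

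Established iPSC clones grown without doxycycline were compared with the 3NG+ cells of their cassette and with the parental type of ESC. No member was called in MKOS iPSCs against MKOS 3NG+ cells, where 2.14% of all genes were called in either direction, nor in OKMS iPSCs against OKMS 3NG+ cells, where 0.614% were. At an unadjusted p under 0.05 there were 2221 and 1865 genes, with 1 member each, and DESeq2 called no member. The member in MKOS was Dnmt3a, at 84.7 and 189.6 CPM in iPSCs and 39.1, 58.5 and 82.2 CPM in 3NG+ cells, without overlap (1.15 ± 0.44, adjusted p = 0.183, edgeR), and it was called in 41 libraries, at 1.16 (adjusted p = 0.0277), and without the filter, at 1.15 (adjusted p = 0.00888), where Dnmt3l was called too (0.92, adjusted p = 0.0303). The member in OKMS was Tet3, at 1.03 and 1.07 CPM in iPSCs (-1.91 ± 0.93, adjusted p = 0.409, edgeR).

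Against TNG MKOS and TNG OKMS ESCs, no member was called in the 4 iPSC -dox libraries, where 1.40% of all genes were called in either direction and 2183 genes with no member had an unadjusted p under 0.05, and DESeq2 called no member. The intervals of the log2 difference ran from -1.25 to 0.73 for Dnmt3b, from -1.28 to 0.47 for Dnmt3l and from -0.98 to 0.47 for Tet1, so that differences inside these limits cannot be seen here. MKOS and OKMS MEFs likewise had no member called, where 0.102% of all genes were called in either direction and 1037 had an unadjusted p under 0.05, 1 member among them, and DESeq2 called no member. That member was Tet2, at 9.32 and 16.6 CPM in MKOS and 4.45 and 8.25 CPM in OKMS MEFs (1.06 ± 0.50, adjusted p = 0.723, edgeR).

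2i, by its usual meaning a medium with inhibitors of MEK and GSK3 that is known to lower DNA methylation in ESCs, was compared with growth without doxycycline over both iPSC genotypes. The labels do not say whether doxycycline was absent in 2i. The study's methods name a medium with fetal calf serum and leukemia inhibitory factor for ESCs and iPSCs, and do not describe 2i. The comparison is thus between media, whatever the doxycycline. All members of the de novo group, Dnmt3a, Dnmt3b and Dnmt3l, were lower in 2i, where 2.45% of all genes were called lower, and no member was higher, where 1.89% were. The share of all calls that were higher was 43.6%, and 55.6% without scaling factors. For all 3 genes every 2i library was below every -dox library.

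Dnmt3a was at 20.5 and 12.8 CPM in MKOS 2i and 18.3 and 14.9 CPM in OKMS 2i iPSCs, and at 84.7 and 189.6 CPM in MKOS -dox and 94.8 and 103 CPM in OKMS -dox iPSCs. All 4 libraries in 2i were within or below the range of this gene in MEFs, and the log2 fold change was -2.92 ± 0.37 (adjusted p = 1.36e-06, edgeR). Dnmt3l was at 97.9 and 63.1 CPM in MKOS 2i and 41.2 and 9.84 CPM in OKMS 2i, against 177 and 325 CPM and 184 and 204 CPM without doxycycline. The log2 fold change was -2.39 ± 0.46 (adjusted p = 9.42e-04, edgeR), and the OKMS 2i libraries were the lowest.

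Dnmt3b was at 43.7 and 35.2 CPM in MKOS 2i and 40.3 and 43.0 CPM in OKMS 2i, against 93.6 and 242 CPM and 136 and 101 CPM without doxycycline. The log2 fold change was -1.90 ± 0.51 (adjusted p = 0.0222, edgeR). The Dnmt3b call was lost without MKOS 2i replicate 1 (-1.96, adjusted p = 0.0746) or 2 (-1.85, 0.0824), MKOS -dox replicate 2 (-1.47, 0.166), OKMS -dox replicate 1 (-1.76, 0.0752), or OKMS 2i replicate 1 (-1.87, 0.0942) or 2 (-1.94, 0.076), while the Dnmt3a and Dnmt3l calls held in all alternatives, at -3.06 to -2.05 for Dnmt3l.

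The other 5 members were not called in 2i. Tet1 was at 75.4, 101, 98.5 and 122 CPM in the 4 libraries in 2i and 263, 124, 98.8 and 152 CPM without doxycycline, with overlap, and its log2 fold change was -0.75 ± 0.36 (adjusted p = 0.271, edgeR; 0.0256 without the filter). Dnmt1 was at 129, 109.8, 129 and 152 CPM in 2i and 141, 110.0, 94.6 and 114 CPM without doxycycline, with an interval of the difference from -0.27 to 0.43. Uhrf1 was at 227, 200, 212 and 189 CPM in 2i and 146, 191, 174 and 187 CPM without, with an interval from -0.20 to 0.48. Within each cassette the 2i libraries of Uhrf1 were above the -dox ones, with 2 libraries on each side. Within a single cassette only, Dnmt1 and Tet3 separated in OKMS, higher in 2i, and Tet1 in MKOS, lower in 2i. Prdm14, a repressor of the de novo genes in naive cells, was at 15.1, 28.2, 17.8 and 31.3 CPM in 2i and 11.8, 3.55, 0.825 and 9.98 CPM without doxycycline, without overlap, and was not called (1.75 ± 0.75, adjusted p = 0.201, edgeR). Of the 8 pluripotency genes, 1 was called higher (Tfcp2l1) and 2 lower (Utf1 and Tdgf1), and the S phase sum was 2749.5 to 3449.8 CPM in 2i and 2320.1 to 3306 CPM without doxycycline.

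**Figure D3:**
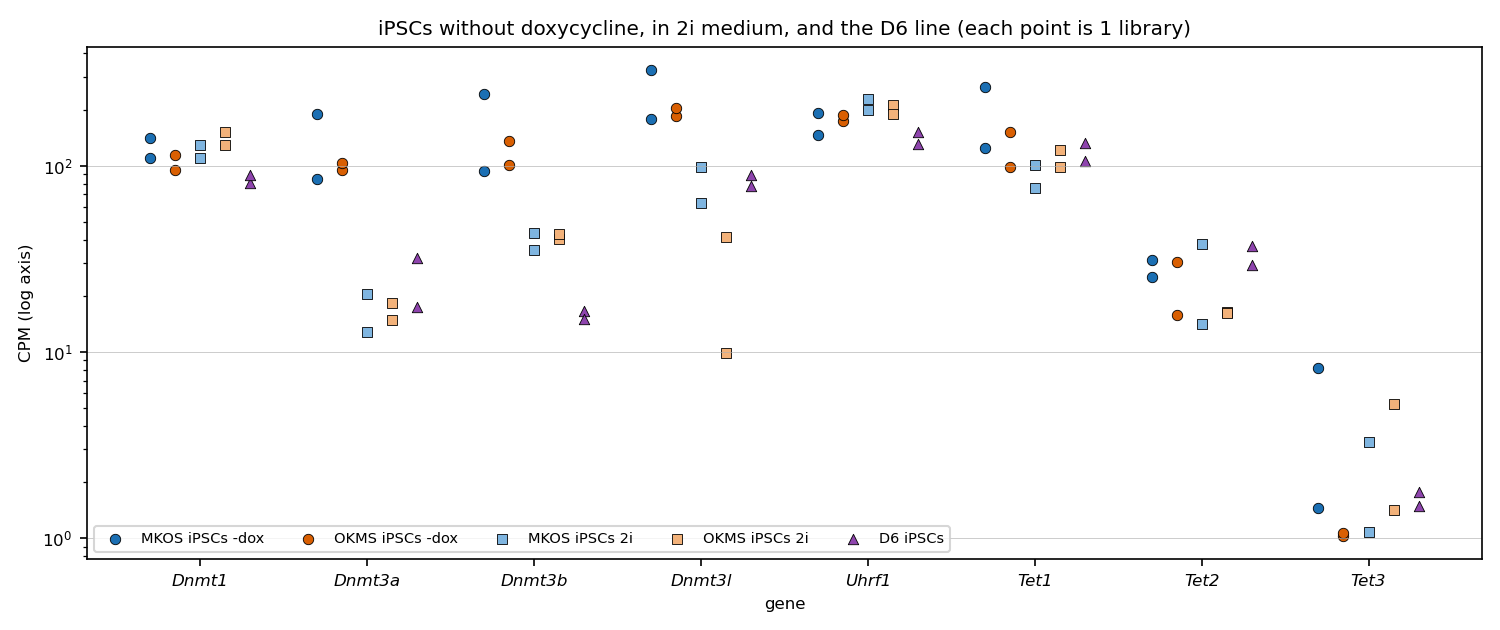
CPM on a log axis of the 8 genes in iPSCs without doxycycline (circles), in 2i (squares) and in the D6 line (triangles), with 1 point per library. For Dnmt3a, Dnmt3b and Dnmt3l all squares lie below all circles, while they overlap for Dnmt1, Uhrf1, Tet1, Tet2 and Tet3.

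Over the 20 conditions, ranked by mean level, most neighbours overlapped and the genes fell into different orders. How often neighbours overlap for other genes was not counted, so the steps given below describe these genes only. A step compares neighbours in rank only, and libraries of conditions further apart can still overlap across it. Dnmt1 rose from 44.5 CPM in OKMS MEFs to 159.8 CPM in TNG OKMS ESCs, with 2 of the steps between neighbours free of overlap, after the 3 MEF types and before TNG OKMS ESCs. Uhrf1 ran from 33.5 CPM in MKOS MEFs to 222 CPM in MKOS 3NG+ cells with 3 such steps, 2 of them on either side of WT MEFs (59.2 CPM).

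Dnmt3l ran from 0.0377 CPM in WT MEFs to 387 CPM in TNG ESCs with 4 such steps, between MKOS MEFs (0.0512 CPM) and OKMS MEFs (0.507 CPM), D6 (83.0 CPM) and OKMS 3NG+ cells (118 CPM), MKOS 3NG+ cells (129.6 CPM) and OKMS -dox iPSCs (194 CPM), and E14 (253 CPM) and TNG OKMS ESCs (324 CPM). The first of these Dnmt3l steps rests on 1 and 0 reads in MKOS MEFs against 3 and 4 reads in OKMS MEFs, near the floor. That difference was not called (adjusted p = 0.961, edgeR). Across the step from D6 to OKMS 3NG+ cells, MKOS 3NG- replicate 3, at 128 CPM, was above the lowest OKMS 3NG+ library, at 91.6 CPM. Dnmt3b ran from 1.03 CPM in MKOS MEFs to 203 CPM in TNG ESCs with 3 steps. Between its lowest step and the next lay MKOS 2NG- (15.8), D6 (15.8), OKMS E-CAD- 3NG- (16.5) and OKMS E-CAD- 2NG- cells (16.6 CPM). These are not separate from all conditions above them. OKMS E-CAD- 3NG- replicate 3, at 36.8 CPM, was above MKOS 2i replicate 2, at 35.2 CPM. Dnmt3a had 1 such step, below TNG ESCs (94.8 CPM), and ran from 16.6 CPM in 2i iPSCs to 137 CPM in MKOS -dox iPSCs.

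Tet1 had 2 steps, above the MEFs (2.43 to 3.59 CPM) and above OKMS E-CAD+ 3NG- cells (33.6 CPM), and reached 258 CPM in TNG OKMS ESCs. Tet2 had 1 step, between OKMS MEFs (6.35 CPM) and MKOS MEFs (13.0 CPM), and reached 39.9 CPM in E14 ESCs. Tet3 had 2 steps and ran from 1.05 CPM in OKMS -dox iPSCs to 20.3 and 23.4 CPM in OKMS E-CAD- 3NG- and 2NG- cells. Its means in MEFs (9.77 to 13.0 CPM) were above those in ESCs (2.55 to 4.84 CPM). Across the means of the 20 conditions, as log2(CPM + 1), Pearson's r was 0.94 between Dnmt3l and Tet1, the highest among pairs of members. It was 0.89 between Dnmt1 and Uhrf1, between Dnmt3b and Tet1, and between Uhrf1 and Tet1. With Tet3 it was negative for every other member, from -0.82 with Dnmt3l to -0.34 with Dnmt1. In each pair, all points share the same libraries and depths.

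Genes with the most similar pattern to each member, by Pearson's r over the same 20 condition means, were named by a rule of 3 per gene. For Dnmt1 they were Fen1 (0.943), Nup155 (0.943) and Ezh2 (0.942). For Dnmt3l they were Rnf138 (0.98), Dppa2 (0.976) and Usp28 (0.975), and for Dnmt3b Utp14a (0.969), Fam60a (0.941) and Grhl2 (0.94). For Tet1 they were Mybl2 (0.985), Hells (0.981) and Rif1 (0.98). Lower values of r were found for Dnmt3a (Enox1 0.888, Fgf15 0.878, Nufip2 0.865) and Tet2 (Hic2 0.909, Mcm6 0.878, Rif1 0.876). Uhrf1 was closest to Mettl5 (0.964), Nup43 (0.957) and 1190007I07Rik (0.957), and Tet3 to Msl1 (0.94), Tspan6 (0.929) and Ccdc50 (0.925). Ranked by Spearman's rho, the nearest 3 shared 2 genes with this choice for Dnmt3b and at most 1 for the other 7 members.

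The rest of the pathway was followed in lists, each given as its members called over those tested. Of 13 recruiters and modulators, 9 were higher and 1 lower in ESCs than in MEFs, where 29.6% and 30.4% of all genes were, with a median log2 fold change of 1.86 against 0 over all genes. They include Dppa3, which protects methylation in the early embryo (79.7 against 0.118 CPM on average, adjusted p = 1.74e-11, edgeR), and Prdm14 (5.98 CPM against 0). In MKOS 2NG- cells against MKOS MEFs, 6 were higher and 1 was lower, where 15.0% of all genes were higher and 12.0% lower. The 1 was Cxxc5, a CXXC zinc finger gene (-2.26 ± 0.50, adjusted p = 5.53e-04, edgeR). Dppa3 had a mean of 103 CPM in these cells and no reads in MKOS MEFs.

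Between the cassettes, 2 of the 13 were higher in MKOS 2NG- cells, where 2.84% of all genes were. Zfp57, which maintains methylation at imprints, was at a mean of 74.2 CPM in MKOS and 24.2 CPM in OKMS (1.53 ± 0.29, adjusted p = 7.29e-04, edgeR), and Prdm14 at 3.88, 1.03 and 13.3 CPM against 0.17, 0 and 0.776 CPM (adjusted p = 0.0317, edgeR), with the OKMS libraries near the floor. In 3NG+ cells Dppa3 was lower in MKOS, at a mean of 73.4 against 903 CPM (-3.76 ± 0.75, adjusted p = 0.00707, edgeR). None of the 13 was called in 2i, where 1.89% of all genes were higher and 2.45% lower.

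Of the 9 methyl-CpG readers, 2 were higher and 4 lower in ESCs than in MEFs, with a median of -0.68 (Zbtb4 and Mbd2 lower, Mbd4 higher). Over all genes, 29.6% were higher and 30.4% lower, so these counts are near the background. None of the 9 was called in MKOS 2NG- cells against MKOS MEFs, between the cassettes at 2NG- or 3NG+, or in 2i. Of the 11 base excision genes tested, which replace oxidised or deaminated bases, 6 were higher and 2 lower in ESCs, and 3 higher and 1 lower in MKOS 2NG- cells, where 15.0% of all genes were higher and 12.0% lower. Parp1, which signals DNA breaks, was at a mean of 180.2 CPM in ESCs and 33.8 CPM in MEFs. Tdg, the glycosylase that excises the TET products, did not pass the filter. Of the 7 genes of methyl donor and cofactor metabolism, 2 were higher and 2 lower in ESCs, again near the share over all genes, and 1, Idh1, a source of the TET cosubstrate, was higher in 2i, where 1.89% of all genes were (226 against 79.3 CPM on average, 1.46 ± 0.25, adjusted p = 2.20e-04, edgeR).

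Germline genes known to be silenced by promoter methylation were followed as well. Of 14, 12 were higher in ESCs than in MEFs and none lower, where 29.6% of all genes were higher and 30.4% lower. The median log2 fold change was 5.84, and among the 12 were Hormad1 (31.2 CPM against 0), Rpl10l (69.8 against 0.135) and Mael (9.70 against 0). In MKOS 2NG- cells none was higher than in MKOS MEFs and 1 was lower, where 15.0% of all genes were higher and 12.0% lower. The 1 was Ddx4 (0.136 against 5.43 CPM on average, adjusted p = 0.00116, edgeR), and the median was 0. In OKMS 3NG+ against 3NG- cells 7 of the 14 were higher and none lower, where 3.06% of all genes were higher, and in MKOS 3 were, where 0.557% of all genes were. Between the cassettes, none was called at 3NG+, where 0.345% of all genes were higher and 0.339% lower in MKOS. At 3NG- 2 were higher in MKOS, where 1.38% of all genes were. At 2NG- 1, Sycp3, was lower in MKOS (1.15 against 7.84 CPM on average, adjusted p = 0.019, edgeR), where 2.23% of all genes were. None was called in 2i, where 1.89% of all genes were higher and 2.45% lower. Methylation itself was not measured.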

How the data were processed

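RNA of 48 libraries was measured by STRT 5′-end sequencing. The authors deposited raw counts of reads per transcript, aligned with Bowtie 0.12.7 to mm10 per the labels' processing notes (the study's methods name an older build), with reads that map to several places included; 98.6% of 20698 shared symbols have their deposited position inside the GRCm38 gene. Repeats took 14.2 to 33.1% and mitochondrial transcripts 3.33 to 13.6% of the reads. Groups follow the sample labels, and no column of samples was left unused.

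CPM was computed from the counts. edgeR 4.0.16 (R 4.3.3) fitted all 48 libraries with 1 coefficient per condition, TMM scaling and filterByExpr by condition (15630 genes, common dispersion 0.217, 28 residual degrees of freedom), with quasi-likelihood F tests and Benjamini-Hochberg adjustment. SE is the absolute log2 fold change over the square root of F, and intervals are 95%. In simulated MKOS and OKMS E-CAD+ 2NG- data with 200 of 15630 genes changed 4-fold, edgeR called 72 genes, of which 71 were changed and in the right direction, and DESeq2 1.42.0 called 91, of which 81 were.

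Named genes are the 8 members, the 3 with the highest Pearson's r to each, at most 3 called genes per list with the largest change, and the sort genes and Prdm14. The members and lists were chosen with earlier results of these data known. Alternatives were DESeq2 (Wald test, and its size factors in edgeR), no scaling, no filter, a replicate block, 41 libraries, only the conditions compared, and each library left out; fits with 1 library left out keep the trended dispersion of all 48 and assume that a lone library varies like the other groups. Promoter windows came from RefSeq (GRCm38.p6). Tables were made with Python 3.11.15, pandas 2.3.3, NumPy 2.4.6, SciPy 1.17.1 and figures with Matplotlib 3.10.9.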

Additional observations from a re-analysis of the deposited data

Results flagged for a closer look

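The D6 iPSC line enters no comparison between groups, since the labels do not give its medium. Its mean levels lay above all 6 MEF libraries for 6 of the genes: Dnmt1 (84.6 CPM), Dnmt3b (15.8 CPM), Dnmt3l (83.0 CPM), Uhrf1 (141 CPM), Tet1 (119 CPM) and Tet2 (33.3 CPM). How many of all genes lie above the MEFs in D6, or below the -dox iPSCs, was not counted. In ESCs, 29.6% of all genes were called higher than in MEFs. Dnmt3b was at 16.5 and 15.1 CPM in the 2 D6 libraries, and Dnmt3a at 17.4 and 32.0 CPM. Without a test, the D6 libraries of Dnmt1, Dnmt3a (mean 24.7 CPM), Dnmt3b and Dnmt3l lay below all 4 libraries of MKOS and OKMS iPSCs without doxycycline. Those of Uhrf1, at 151 and 131 CPM, overlapped the -dox range of 146 to 191 CPM. The D6 means of Tet1, Tet2 and Tet3 lay inside or above the -dox range. Prdm14 was at 23.8 and 22.1 CPM in D6, against 0.825 to 11.8 CPM in the -dox iPSCs.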

How the results depend on the processing

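Of 1854 alternative values of the 128 member fold changes, 93 changed direction, none of them called in either fit. For the 71 fold changes that were called, had an unadjusted p under 0.05, changed a call or are described above, 448 of 496 values kept direction and side of the threshold, 12 lost a call, 27 gained one and 9 changed direction, and with 1 library left out these were 482 of 542, 37, 5 and 18. DESeq2, as a Wald test or through its size factors, changed no member call. The number of members called, given first for the 48 libraries, moved by over 1.5 times as follows. In OKMS E-CAD+ against E-CAD- cells it went from 2 to 1 in 41 libraries and with only the conditions compared. In MKOS against OKMS 2NG- cells it went from 1 to 2 without the filter and with a replicate block, and to 0 with only the conditions compared, and at 3NG- from 1 to 2 without scaling and to 3 without the filter. In 3NG- against 2NG- cells it went from 1 to 3 without the filter, to 2 with the replicate block and in 41 libraries, and to 0 with only the conditions compared. In MKOS 3NG+ against 3NG- cells it went from 1 to 0 without scaling and with only the conditions compared, and to 3 in 41 libraries, and in OKMS from 4 to 7 in 41 libraries. From 0, it went to 1 without the filter in the interaction, to 2 without the filter and in 41 libraries in MKOS against OKMS 3NG+ cells, and in MKOS iPSCs against 3NG+ cells to 2 without the filter and to 1 with the replicate block and in 41 libraries. A count that stayed the same could still hide a change of gene. Between the cassettes at 2NG- it was 1 in 41 libraries, where Dnmt3b lost its call and Dnmt3l gained one. The same swap came without replicate 3 of OKMS E-CAD+ 2NG- cells. The cause of these moves was not tested.

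With 1 library left out, 8 to 8 members were called in ESCs against MEFs, 4 to 5 in MKOS 2NG- cells against MEFs, 2 to 5 in OKMS E-CAD- 2NG- cells against MEFs, 2 to 3 in E-CAD+ against E-CAD- cells, 1 to 1 between the cassettes at 2NG- and 0 to 1 at 3NG-, 0 to 2 in 3NG- against 2NG- cells, 0 to 1 in MKOS and 1 to 5 in OKMS 3NG+ against 3NG- cells, 2 to 3 in 2i, and 0 to 0 elsewhere.

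The changes of direction among the described values, all uncalled, were these. For Tet2 in MKOS 2NG- cells against MEFs the value was -0.06 with the DESeq2 test, -0.06 with its size factors and -0.22 in 41 libraries. In 41 libraries it was 0.35 for Dnmt3l in OKMS E-CAD- 2NG- cells against MEFs and -0.2 for Tet1 between the cassettes at 2NG-. Without scaling it was -0.07 for Uhrf1 in E-CAD+ against E-CAD- cells, 0.03 for Dnmt1 between the cassettes at 2NG-, -0.09 for Dnmt1 in MKOS 3NG+ against 3NG- cells and 0.13 for Dnmt3l between the cassettes at 3NG+. With 1 library left out the values ran from -0.41 to 0.02 for Dnmt3a and -0.23 to 0.41 for Tet2 in MKOS 2NG- cells against MEFs, from -2.29 to 0.36 for Dnmt3l in OKMS E-CAD- 2NG- cells against MEFs and from -0.05 to 0.14 for Uhrf1 in E-CAD+ against E-CAD- cells. Between the cassettes at 2NG- they ran from -0.24 to 0.05 for Dnmt1, -0.25 to 1.01 for Dnmt3a and -0.16 to 0.25 for Tet1, between the cassettes at 3NG+ from -0.34 to 0.18 for Dnmt3l, and in iPSCs against TNG ESCs from -0.69 to 0.22 for Dnmt3b. Of the calls over all genes in 2i, more were lower than higher, and without scaling more were higher, as given above.

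Same-numbered replicates did not meet the criterion for pairing, a correlation over 0.1 in every pair, and nothing in the labels says what a number shares. Over 84 pairs of sorted libraries the deviations from the condition means correlated at -0.0511 to 0.414 (27 pairs over 0.1, and 20 of 24 libraries closest to their own number), and over 132 pairs of the others at -0.277 to 0.22 (16 pairs over 0.1, and 8 of 24 libraries closest to their own number). The 20 libraries point to something that numbers share in the sorted cells, and a criterion on every pair does not exclude it. The p-values of the main fit take no account of it. With a replicate block, Dnmt3l in MKOS against OKMS 2NG- cells (1.76, adjusted p = 0.0312), Dnmt3b in 3NG- against 2NG- cells (1.29, adjusted p = 0.0366) and Dnmt3a in MKOS iPSCs against 3NG+ cells (1.33, adjusted p = 0.0421) gained a call, and no other member call changed. Besides the counts above, the replicate block moved the calls over all genes by 0.84 to 2.0 times. Over all genes, calls moved by 0.98 to 40.75 times without the filter, 0.57 to 11.5 times in 41 libraries, 0.19 to 22.5 times with only the conditions compared and 0.97 to 5.25 times with the DESeq2 test. Scaling moved the median of all genes by -0.13 in ESCs against MEFs (DESeq2 size factors) and, without scaling, by 0.12 and 0.16 between the cassettes at 3NG- and 3NG+ and by -0.12 in iPSCs against TNG ESCs. With reads on repeats and spike-ins in the total, 87 of 160 mean levels stayed within 1 SD and 73 did not. The shallowest libraries limit Dnmt3l in MEFs and Tet3 in 3NG+ cells and iPSCs, where levels were near the floor of 3 reads.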
